A study of Mus musculus with 8 samples.

Results

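The genes described here are the ligands, receptors, Smad proteins, antagonists and direct targets of the TGF-beta and BMP pathway, measured in medullary thymic epithelial cells (mTECs) of the mouse. They were chosen by name: every gene of the array whose symbol begins with Bmp, Tgfb, Gdf, Inhb, Acvr or Smad, together with Id1, Id2, Id3, Id4, Nog, Grem1, Chrd and Fst. This gave 57 of the 22446 genes named on the array, covered by 92 probes. Of the 57 genes, 45 had a signal above background in both arrays of at least 1 group and were tested, and 12 were not. The prefix also takes in genes that share only a name with the pathway, such as the kinase gene Bmp2k, and these are described last.

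TGF-beta, activin and BMP ligands bind pairs of type I and type II receptor kinases, which phosphorylate receptor Smads that enter the nucleus with a common partner Smad. TGF-beta and activin receptors act mainly on Smad2 and Smad3, BMP receptors on Smad1, Smad5 and Smad9, while Smad6 and Smad7 inhibit the pathway and the Id genes are direct BMP targets in many cell types. In the thymus, BMP4 has been described as a factor that sustains epithelial cells and TGF-beta signalling as a limit on mTEC number, and the kinase Hipk2 has been described as a corepressor of Smad-driven transcription.

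RNA was compared on 8 Illumina bead arrays from 4 groups with 2 biological replicates each. The groups were CD80low and CD80high mTECs from mice carrying a knockout of Hipk2 restricted to thymic epithelial cells (TECs), and the same subsets from wildtype controls of the matings. CD80 is a ligand that costimulates T cells and marks the mature mTECs by its high level. The driver of the deletion and the age of the mice are not given in the sources used here.

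Between 44.3% and 49.8% of the probes lay above background on an array. Aire and Cd80, which define mature mTECs, were higher in CD80high cells by 4.56 ± 0.148 and 4.81 ± 0.231 on the log2 scale (limma, estimate ± SE, 4 against 4 arrays). The keratin genes Krt5 and Krt14 were high on every array, whereas the probe of Epcam, another epithelial marker, lay near background (4.88 to 5.59). The brightest of the 4 Hipk2 probes differed between genotypes by -0.12 in CD80low and 0.24 in CD80high cells, both with an adjusted p of 1. On a second, dimmer tested probe, both knockout arrays lay below both control arrays in each subset. It measured 5.79 and 6.26 against 6.62 and 6.46 in CD80low cells, and 5.59 and 5.60 against 5.85 and 5.71 in CD80high cells. The remaining Hipk2 probes were near background and not tested. Where the Hipk2 probes lie relative to the deleted part is not given, so they do not check the knockout. The first principal component (84.5% of the variance) separated the subsets, and the second (5.81%) parted replicate 1 from replicate 2 of CD80low cells. Of the 45 tested pathway genes, 26 were higher in replicate 2 than in replicate 1 in both CD80low groups, against 35.8% of all genes. Lower in replicate 2 in both were 4, against 26.2%. Summed intensities of 10 tested thymocyte markers were 15615 and 16459 in the CD80low replicate 1 arrays of control and knockout, 2299 and 2486 in the replicate 2 arrays, and 1784 to 2535 in CD80high cells. Levels below are log2 intensities after background correction and quantile normalisation. They compare arrays for 1 probe and do not rank genes.

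The subsets differed widely in these genes. Of the 45 tested genes, 36 (80%) changed between CD80high and CD80low cells at an adjusted p under 0.05 in limma's fit over all 14392 tested genes, with both genotypes averaged, against 56.5% of all tested genes. Lower in CD80high cells were 24 (53.3%), against 27.7% of all genes, and higher were 12 (26.7%), against 28.8%. The median change of the tested pathway genes was -0.75, beside -0.03 for all genes. A change of over 2-fold was found for 23 genes, 17 lower and 6 higher, where 9.48% and 14.6% of all genes made such changes. A gene that entered the test only through the subset where it is high had to differ, so the counts were also split by detection. Of the 29 pathway genes above background on all 8 arrays, 22 (75.9%) were lower and 3 (10.3%) higher, against 33.4% and 21.9% of the 10019 genes so detected. Of the 16 that missed background on at least 1 array, 2 (12.5%) were lower and 9 (56.2%) higher, against 14.5% and 44.5% of the 4373 genes of that kind. The change itself decides in part which side of this split a gene falls on. The groups of 4 arrays did not overlap for 36 genes, against 53.7% of all genes, and an exact permutation test of 4 against 4 arrays cannot give a p below 0.0286. In sorted bulk cells, fewer cells of a type and less RNA per cell cannot be told apart.

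The same comparison was made within each genotype, which share no arrays. In control cells, 33 genes changed, against 41.8% of all genes, with 11 higher and 22 lower against 22.4% and 19.4% of all genes. In knockout cells, 32 changed, against 40.9%, with 9 higher and 23 lower against 22.1% and 18.8%. Called in both genotypes were 21 lower and 9 higher genes, where 14.9% and 18.8% of all genes were called so, and 42 of the 45 had the same sign in both, as did 87.4% of all genes.

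**Figure D1:**
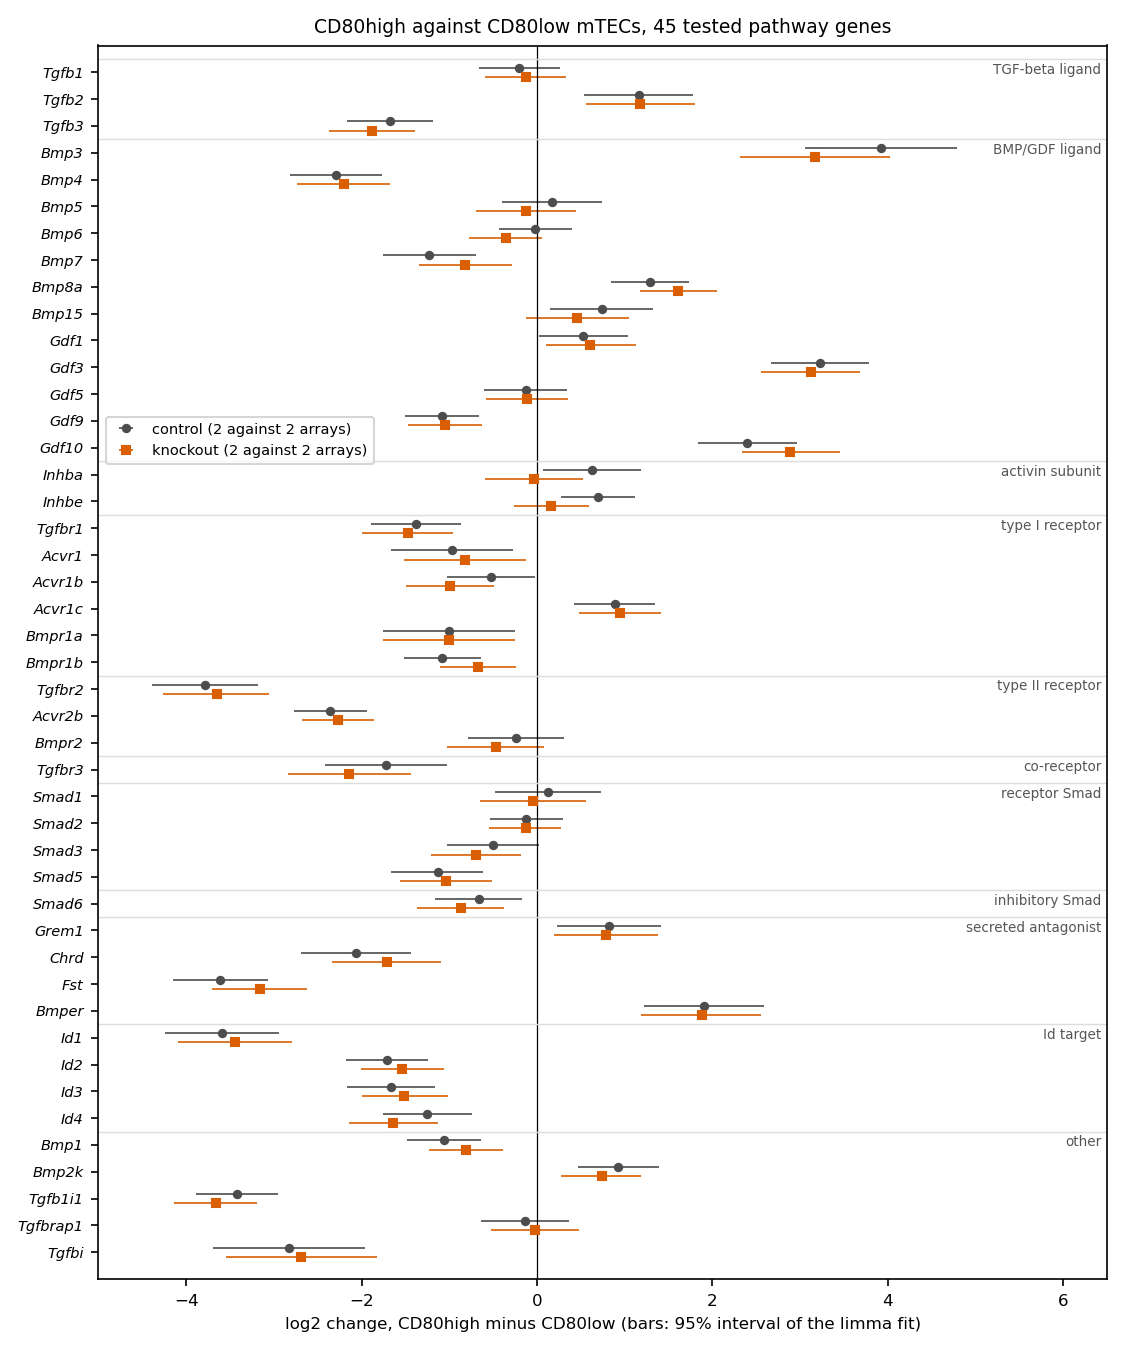
Difference in log2 intensity between CD80high and CD80low mTECs for the 45 tested pathway genes, grouped by role, in control (circles) and knockout (squares) cells with the 95% interval of the limma fit. Tgfbr2, Tgfb1i1, Id1 and Fst lie farthest to the left and Bmp3 and Gdf3 farthest to the right in both genotypes, and Smad1, Smad2 and Tgfb1 lie near 0.

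Among the genes that respond to the pathway, the 4 Id genes, which encode inhibitors of basic helix-loop-helix transcription factors, were all lower in CD80high cells. Of all tested genes, 27.7% were lower. The upstream windows of Id2, Id3 and Id4, and those of the receptor gene Tgfbr2 (lower) and the ligand gene Gdf10 (higher), are shown because these genes moved between the subsets and their windows hold letters that Smad proteins are known to bind. Each is the 250 bases before the gene's start in RefSeq on GRCm38.p6, written 5′ to 3′ on the gene's strand. Capitals mark GGCGCC, the core of BMP-responsive elements, or CAGAC on either strand (GTCTG where it reads on the other), the extended Smad box.
Id2 (chr12:25096093-25096342, minus strand): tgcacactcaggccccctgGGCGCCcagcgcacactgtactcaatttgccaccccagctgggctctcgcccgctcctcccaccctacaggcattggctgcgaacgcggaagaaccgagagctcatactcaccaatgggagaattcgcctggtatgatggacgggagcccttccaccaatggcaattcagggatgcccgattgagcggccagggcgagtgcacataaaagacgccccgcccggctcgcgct
Id3 (chr4:136143572-136143821, plus strand): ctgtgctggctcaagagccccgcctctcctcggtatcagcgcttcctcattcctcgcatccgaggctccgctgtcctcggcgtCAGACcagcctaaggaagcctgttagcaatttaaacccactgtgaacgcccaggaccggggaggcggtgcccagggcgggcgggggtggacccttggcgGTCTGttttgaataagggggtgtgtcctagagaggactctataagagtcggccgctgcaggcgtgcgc
Id4 (chr13:48260866-48261115, plus strand): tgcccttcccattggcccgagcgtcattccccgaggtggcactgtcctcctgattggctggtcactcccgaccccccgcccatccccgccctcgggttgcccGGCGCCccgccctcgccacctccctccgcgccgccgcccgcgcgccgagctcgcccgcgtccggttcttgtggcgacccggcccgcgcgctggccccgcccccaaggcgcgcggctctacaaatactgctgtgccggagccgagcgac
Tgfbr2 (chr9:116175364-116175613, minus strand): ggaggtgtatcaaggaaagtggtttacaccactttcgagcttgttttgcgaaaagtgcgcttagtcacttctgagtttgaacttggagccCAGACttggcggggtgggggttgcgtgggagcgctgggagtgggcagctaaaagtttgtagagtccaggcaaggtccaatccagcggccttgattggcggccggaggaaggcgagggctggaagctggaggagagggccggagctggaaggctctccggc
Gdf10 (chr14:33923337-33923586, plus strand): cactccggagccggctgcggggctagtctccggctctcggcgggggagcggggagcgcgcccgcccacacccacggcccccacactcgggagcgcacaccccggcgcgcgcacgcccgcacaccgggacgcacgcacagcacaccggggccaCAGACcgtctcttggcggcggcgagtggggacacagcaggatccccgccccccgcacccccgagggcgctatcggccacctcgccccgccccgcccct

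Windows were found for 40 of the 57 genes. GGCGCC on either strand stood in the windows of 7 of 16 genes that were lower in CD80high cells (43.8%) and 3 of 10 that were higher (30%). It stood in 2 of 7 that were tested without a call (28.6%) and 1 of 7 not tested (14.3%). Of all 27025 genes with a window, 10.8% held it. CAGAC was in 7 of the 16 lower genes (43.8%) and 6 of the 10 higher genes (60%), against 45.8% of all genes. GCCGNC, another GC-rich form of the BMP element, was in 12 of the 16 (75%) and 8 of the 10 (80%), against 29.6%. It was also in 4 of 7 genes without a call (57.1%) and 3 of 7 not tested (42.9%). The windows printed above have a GC content of 58.4% to 78.8%, and the comparison with all genes was not matched for it. The palindrome GTCTAGAC was in none of the windows of these 40 genes and in 0.2% of all genes. Such matches describe letters in these windows and do not show binding, and GGCGCC and GCCGNC can overlap.

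Id1 measured 10.23 and 10.77 in control CD80low, 10.09 and 10.70 in knockout CD80low, 7.12 and 6.70 in control CD80high and 7.21 and 6.69 in knockout CD80high cells. All 4 CD80low arrays lay above all 4 CD80high arrays, and Id1 fell by 3.52 ± 0.207 on the log2 scale (11.4-fold lower, adjusted p = 2.86e-07, limma). Id2 went from 9.22 and 9.28 (control) and 8.61 and 9.05 (knockout) in CD80low to 7.51 and 7.57 (control) and 7.45 and 7.14 (knockout) in CD80high cells, a change of -1.62 ± 0.15 (adjusted p = 7.26e-06). A second, dimmer Id2 probe gave -0.42 with an adjusted p of 0.189, so the Id2 probes differ in size and call. Id3, at 9.18 to 9.40 in CD80low arrays and 7.38 to 7.90 in CD80high arrays, changed by -1.58 ± 0.158 (adjusted p = 1.26e-05). For Id4 the ranges were 7.48 to 7.91 and 6.04 to 6.67, with a change of -1.44 ± 0.162 (adjusted p = 3.02e-05). The subsets did not overlap for any of the 4 Id genes, and each was called in both genotypes taken alone.

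**Figure D2:**
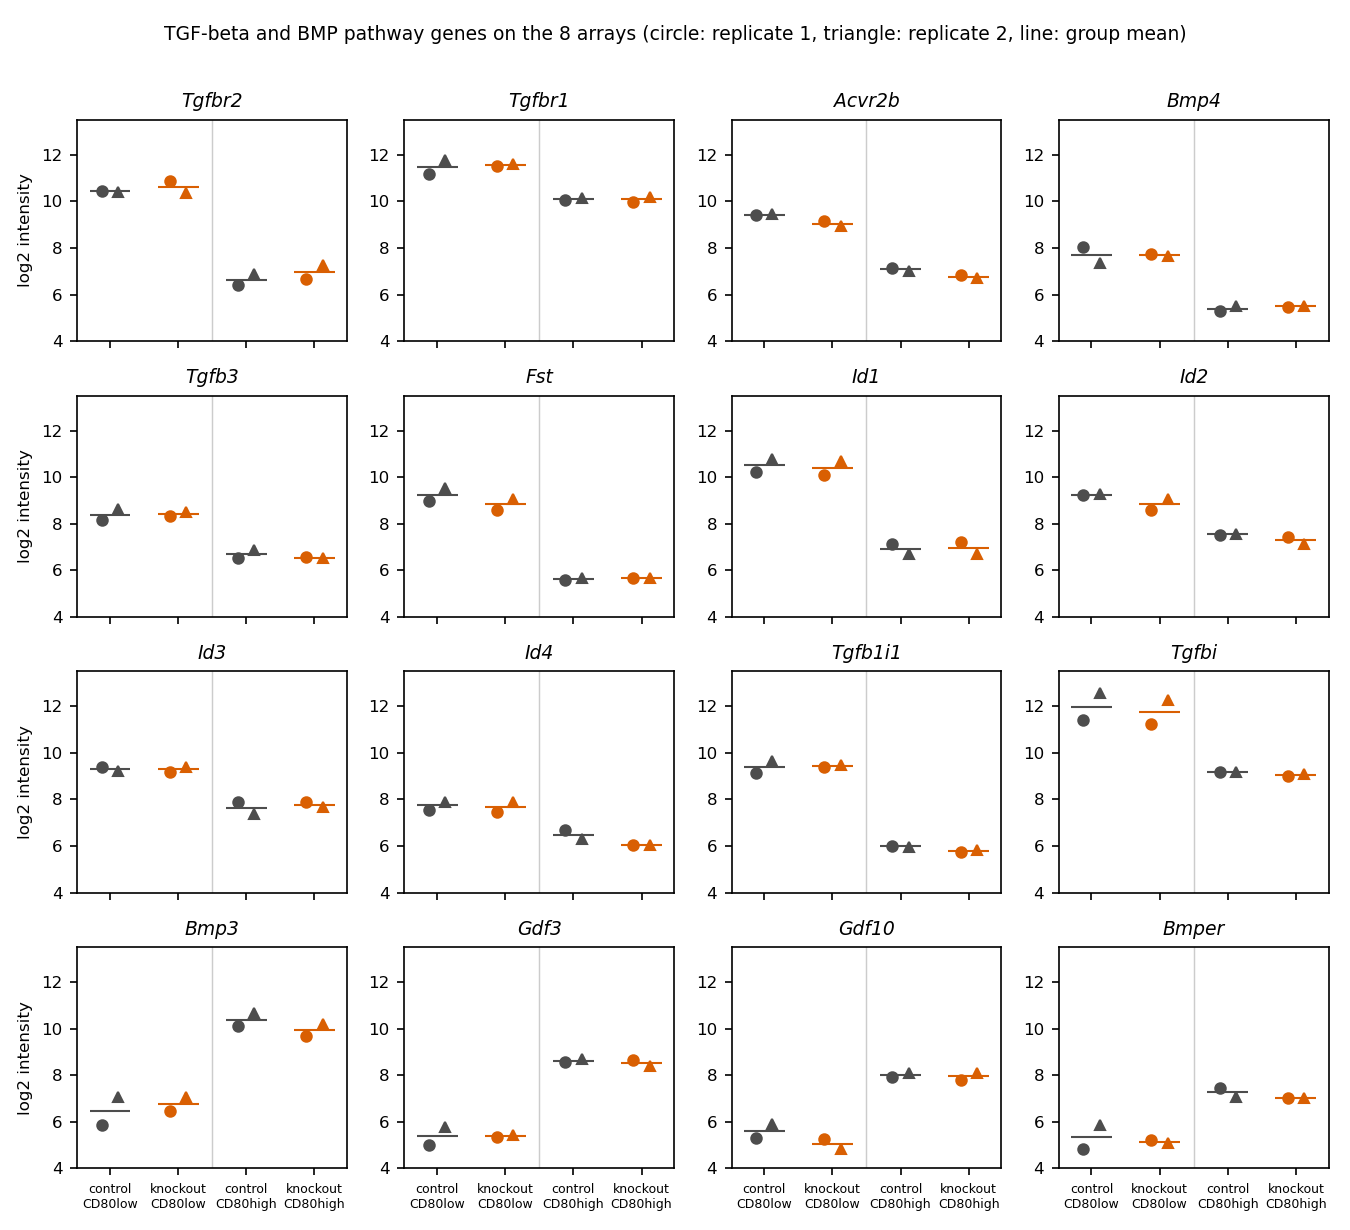
Log2 intensity of 16 pathway genes on each of the 8 arrays, by genotype and subset, with circles for replicate 1, triangles for replicate 2 and a line at the group mean. The first 12 genes are lower on every CD80high array than on any CD80low array, and Bmp3, Gdf3, Gdf10 and Bmper are higher.

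Type II receptors activate the type I receptors. Tgfbr2, the type II receptor for TGF-beta, measured 10.46 and 10.41 in control CD80low, 10.87 and 10.36 in knockout CD80low, 6.40 and 6.89 in control CD80high and 6.66 and 7.26 in knockout CD80high cells. It changed by -3.72 ± 0.192, 13.2-fold lower in CD80high cells (adjusted p = 1.2e-07), with similar values in control (-3.79) and knockout (-3.65). Its second tested probe, at a mean of 5.23 close to background, gave -0.54 (adjusted p = 0.00808, and 0.0656 in control cells alone). Acvr2b, an activin type II receptor, was at 8.95 to 9.45 in CD80low and 6.72 to 7.15 in CD80high arrays and changed by -2.31 ± 0.131 (4.97-fold lower, adjusted p = 2.16e-07). Bmpr2, the type II receptor for BMPs, had a difference of -0.36 (95% interval -0.74 to 0.03, adjusted p = 0.105). The other activin type II receptor gene, Acvr2a, was above background on 0 of 8 arrays.

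All 6 tested type I receptor genes changed, 5 lower and Acvr1c higher. Of all tested genes, 56.5% changed, 27.7% lower and 28.8% higher. Tgfbr1, the type I receptor that pairs with Tgfbr2, measured 11.18 and 11.79 (control) and 11.51 and 11.62 (knockout) in CD80low, and 10.06 and 10.16 (control) and 9.97 and 10.21 (knockout) in CD80high cells. No CD80high array reached a CD80low array, and the change was -1.43 ± 0.163 (adjusted p = 3.51e-05). A dimmer second Tgfbr1 probe gave -0.69 (adjusted p = 0.00574), and in knockout cells alone -0.48 (adjusted p = 0.138). The BMP type I receptors Bmpr1a and Bmpr1b changed by -1 ± 0.238 and -0.88 ± 0.139 (adjusted p = 0.00481 and 0.000365). A dimmer Bmpr1b probe gave -0.90 in control cells without a call (adjusted p = 0.0638). Acvr1, which serves BMPs and activins, ran from 8.09 to 8.95 in CD80low and 7.38 to 7.72 in CD80high arrays (-0.89 ± 0.221, adjusted p = 0.00594), and the activin receptor Acvr1b from 5.84 to 6.60 and 5.41 to 5.80 (-0.75 ± 0.159, adjusted p = 0.00237). Acvr1 missed the threshold in knockout cells alone (adjusted p = 0.0596) and Acvr1b in control cells alone (0.0883). Acvr1c, a receptor for Nodal and activins, was above background on 1 of 4 CD80low and 4 of 4 CD80high arrays and was higher by 0.92 ± 0.149 (adjusted p = 0.000437). Neither control CD80low array was above background for Acvr1c, which entered the test only through CD80high cells, so the filter largely set its direction. The co-receptor Tgfbr3, betaglycan, which presents TGF-beta to Tgfbr2, lay at 8.41 to 9.06 in CD80low and 6.21 to 7.10 in CD80high arrays (-1.93 ± 0.223, adjusted p = 3.8e-05). Acvrl1, a type I receptor known from endothelium, was above background on 1 of 8 arrays and was not tested.

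Of the 4 tested receptor Smad genes, Smad5 and Smad3 were lower in CD80high cells, Smad1 and Smad2 did not pass, and none was higher. Of all tested genes, 27.7% were lower and 28.8% higher. Smad5 was at 7.90 and 8.40 (control) and 7.85 and 8.28 (knockout) in CD80low, and at 7.07 and 6.96 (control) and 6.91 and 7.15 (knockout) in CD80high cells, a change of -1.08 ± 0.167 (adjusted p = 0.000298). Smad3 ranged from 9.36 to 9.70 in CD80low and from 8.66 to 9.15 in CD80high arrays (-0.60 ± 0.165, adjusted p = 0.0106, and 0.11 in control cells alone). Without control CD80high replicate 1 the adjusted p of Smad3 was 0.052. Dimmer second probes of both genes went the same way without a call, Smad5 by -0.46 (adjusted p = 0.0529) and Smad3 by -0.41 (adjusted p = 0.0621). For Smad1 the difference was 0.04 (95% interval -0.39 to 0.47, adjusted p = 0.867), with CD80low arrays at 10.38 to 10.94 and CD80high arrays at 10.48 to 11.03. For Smad2 it was -0.12 (95% interval -0.42 to 0.17, adjusted p = 0.438). The subsets overlapped for Smad1 and Smad2. The inhibitory Smad6 changed by -0.77 ± 0.158 (adjusted p = 0.00201), from 5.88 to 6.44 in CD80low down to 5.36 to 5.52 in CD80high arrays. Smad7 and Smad9 were above background on 0 of 8 arrays.

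Of the 3 TGF-beta ligand genes, Tgfb3 was lower and Tgfb2 higher in CD80high cells, and Tgfb1 did not pass. Tgfb3 measured 8.15 and 8.62 (control) and 8.33 and 8.50 (knockout) in CD80low, and 6.54 and 6.86 (control) and 6.56 and 6.51 (knockout) in CD80high cells, so that it was 3.44-fold lower (-1.78 ± 0.156, adjusted p = 4.76e-06). Tgfb2 went the other way, from 5.58 and 5.86 (control) and 5.84 and 5.49 (knockout) to 6.49 and 7.26 (control) and 6.65 and 7.05 (knockout), a rise of 1.17 ± 0.197 (2.25-fold, adjusted p = 0.000554). Neither gene's subsets overlapped. Tgfb1 ran from 7.09 to 7.39 in CD80low and from 6.87 to 7.27 in CD80high arrays, with a difference of -0.17 (95% interval -0.49 to 0.16, adjusted p = 0.358).

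BMP and GDF ligand genes split between the subsets, with 6 of 12 tested genes higher in CD80high cells and 3 lower. Of all tested genes, 28.8% were higher and 27.7% lower. Only Bmp3 of the 6 was above background on both arrays of a CD80low group. Gdf3, Gdf10, Bmp8a, Bmp15 and Gdf1 entered the test only through CD80high cells, so the filter largely set their direction. Of all genes that missed background on at least 1 array, 44.5% were called higher. Bmp3, which encodes a BMP family member known to oppose other BMPs in bone, measured 5.86 and 7.08 in control CD80low, 6.44 and 7.08 in knockout CD80low, 10.13 and 10.66 in control CD80high and 9.67 and 10.19 in knockout CD80high cells. Its rise of 3.55 ± 0.275 was 11.7-fold (adjusted p = 1.96e-06). Gdf3, a ligand of the Nodal branch known from early embryos and fat, was above background on 2 of 4 CD80low arrays (5.01 to 5.76) and lay at 8.38 to 8.68 in CD80high arrays (3.18 ± 0.178, adjusted p = 2.02e-07). Gdf10, a relative of Bmp3, was above background on 1 of 4 CD80low arrays (4.83 to 5.90) and lay at 7.80 to 8.10 in CD80high arrays (2.65 ± 0.178, adjusted p = 6.85e-07). All 4 CD80high arrays stood clear of the CD80low arrays for these 3 genes.

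Where neither array of a group was above background, the change in that genotype is given as a lower bound, with the group's level replaced on each array by the lowest signal above background where that was higher. Knockout CD80low cells gave such a bound for Gdf10, which was at least 5.81-fold higher in knockout CD80high cells (adjusted p = 1.02e-05). By the same rule, Bmper was at least 3.04-fold higher in knockout cells (adjusted p = 0.000768) and Acvr1c at least 1.36-fold higher in control cells (adjusted p = 0.00693). Bmp8a, a BMP known from germ cells and fat, was above background on 0 of 4 CD80low and 4 of 4 CD80high arrays and was at least 2.28-fold higher (adjusted p = 1.07e-05). Bmp8a and Bmp8b are near-identical copies, so the probe could measure either. The oocyte ligand Bmp15 (at least 1.05-fold, adjusted p = 0.019) and Gdf1, a left-right patterning ligand (0.57 ± 0.163, adjusted p = 0.0123), were also called higher, close to background and to the threshold.

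The 3 lower BMP and GDF genes were Bmp4, Bmp7 and Gdf9. Bmp4 measured 8.03 and 7.36 (control) and 7.74 and 7.64 (knockout) in CD80low, and 5.29 and 5.52 (control) and 5.47 and 5.51 (knockout) in CD80high cells. All CD80low arrays lay at least at 7.36 and all CD80high arrays at most at 5.52, a change of -2.25 ± 0.167 (4.75-fold lower, adjusted p = 1.44e-06). Bmp7, at 8.37 to 9.20 in CD80low and 7.63 to 7.87 in CD80high arrays, changed by -1.02 ± 0.17 (adjusted p = 0.00049). Gdf9, best known from oocytes, changed by -1.06 ± 0.134 (adjusted p = 7.11e-05). Bmp5, Bmp6 and Gdf5 did not pass, with differences of 0.02, -0.19 and -0.12. Bmp2, Bmp8b, Bmp10, Gdf2, Gdf6 and Gdf11 were above background on 0 or 1 of 8 arrays and were not tested. Among the activin subunits, Inhbe, not above background on any CD80low array, was called higher (at least 1.02-fold, adjusted p = 0.0195). Inhbe entered the test only through CD80high cells, so the filter largely set its direction. Inhba was not called (0.30, adjusted p = 0.175), and Inhbc was above background on 0 arrays.

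Secreted antagonists, which bind ligands outside the cell, went both ways. Fst, follistatin, which neutralises activins, measured 8.96 and 9.53 in control CD80low, 8.59 and 9.06 in knockout CD80low, 5.59 and 5.69 in control CD80high and 5.66 and 5.67 in knockout CD80high cells. It was 10.4-fold lower (-3.38 ± 0.171, adjusted p = 1.06e-07) with no overlap. Chrd, chordin, which binds BMPs, was at 7.69 to 8.56 in CD80low and 5.90 to 6.35 in CD80high arrays (-1.89 ± 0.2, adjusted p = 1.95e-05). Bmper, a chordin-like BMP regulator, was above background on 1 of 4 CD80low arrays (4.82 to 5.88). It was at 7.00 to 7.45 in CD80high arrays (1.89 ± 0.218, adjusted p = 3.69e-05). Bmper entered the test only through CD80high cells, so the filter largely set its direction. Grem1, gremlin, another BMP antagonist, measured 6.09 and 6.25 (control) and 5.92 and 5.60 (knockout) in CD80low, and 7.03 and 6.94 (control) and 6.14 and 6.96 (knockout) in CD80high cells. Its rise of 0.80 ± 0.187 passed (adjusted p = 0.00419) although knockout CD80high replicate 1 lay below a control CD80low array. Nog, noggin, was above background on 2 of 8 arrays and was not tested.

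Among the 5 remaining genes that carry the prefix, Tgfb1i1 and Tgfbi encode proteins known to be induced by TGF-beta. Tgfb1i1, a focal adhesion adaptor, measured 9.15 and 9.66 (control) and 9.38 and 9.50 (knockout) in CD80low, and 6.02 and 5.95 (control) and 5.74 and 5.81 (knockout) in CD80high cells (-3.54 ± 0.15, 11.7-fold lower, adjusted p = 3.66e-08). Tgfbi, a matrix protein, measured 11.41 and 12.57 (control) and 11.22 and 12.27 (knockout) in CD80low and 9.02 to 9.17 in CD80high cells (-2.76 ± 0.275, adjusted p = 1.25e-05). Replicate 2 lay above replicate 1 by over 1 log2 unit for Tgfbi in both genotypes of CD80low cells, and all 4 values still exceeded every CD80high array. Bmp1, a protease that cleaves chordin and procollagens and not a ligand, changed by -0.94 ± 0.133 (adjusted p = 0.000169). The kinase gene Bmp2k was higher by 0.83 ± 0.145 (adjusted p = 0.000687), with 1 of its 3 tested probes short of the threshold (0.34, adjusted p = 0.0662). Bmp2k also entered the test only through CD80high cells, so the filter largely set its direction. For Tgfbrap1, a receptor-associated adaptor, the difference was -0.08 (adjusted p = 0.704).

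Genes of other cell types also moved between the subsets, where 27.7% of all tested genes were lower and 28.8% higher in CD80high cells. The mean log2 intensity of 11 tested fibroblast and mural markers was 7.83 to 8.08 in CD80low and 6.92 to 7.15 in CD80high arrays, with 7 of the 11 lower and 2 higher. Their summed intensity was 21365 to 30170 and 4991 to 5549, carried by Acta2 and Dcn. The Col1a1 probe differed by only -0.06, and Postn was not above background. Cortical TEC markers averaged 7.58 to 8.36 in CD80low and 6.68 to 7.10 in CD80high arrays, with 4 of 7 lower and 2 higher, while their summed intensity was 3866 to 7553 and 6273 to 8425. Endothelial markers averaged 6.65 to 7.13 and 6.65 to 6.93, with 2 of 6 lower and 2 higher, and Kdr and Tie1 at background. Of the blood cell markers, 3 of 6 erythroid ones were called higher in CD80high cells and none lower, 4 of 6 myeloid and dendritic ones higher and 2 lower, and 2 of 2 B cell markers higher. CD80low and CD80high arrays averaged 6.00 to 7.31 and 7.49 to 7.87 for erythroid, 7.03 to 7.30 and 7.83 to 8.04 for myeloid and dendritic, and 5.96 to 6.90 and 8.40 to 8.84 for B cell markers. The summed erythroid intensity was 8777 and 4988 in the CD80low replicate 1 arrays of control and knockout, 508 and 663 in the replicate 2 arrays and 1732 to 3008 in CD80high arrays. Of 10 tested thymocyte markers, 7 were lower and none higher in CD80high cells (median -1.26), and Cd8a, Rag2 and Ptcra were at background. The part of these cells in the changes of Tgfbr2, Fst, Id1, Bmp3, Gdf3 and the other genes was not tested. Without both CD80low replicate 1 arrays, where thymocyte transcripts were high, 37 pathway genes were called, 12 higher and 25 lower, against 53.1% of all genes in that setting.

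**Figure D3:**
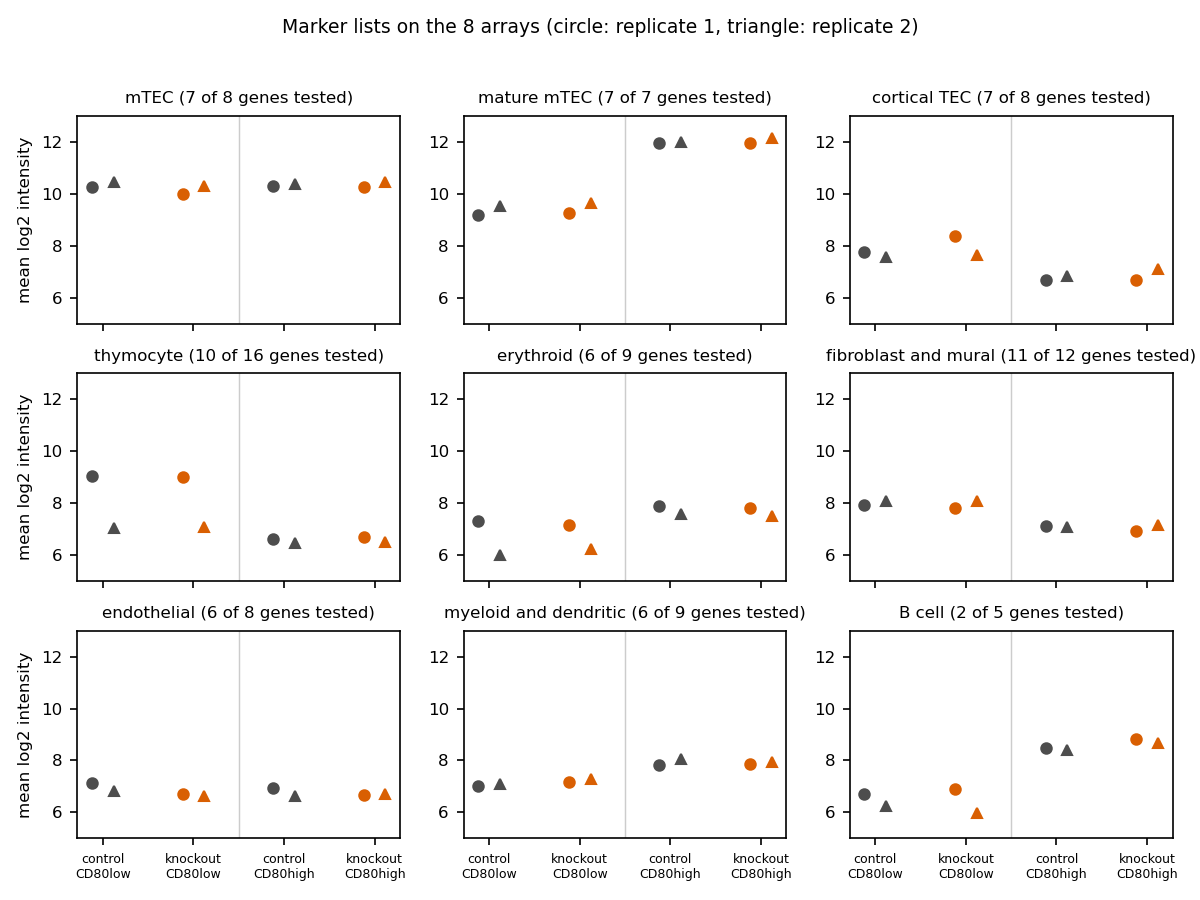
Mean log2 intensity of the tested genes of 9 cell type marker lists on each of the 8 arrays, with circles for replicate 1 and triangles for replicate 2. Mature mTEC markers separate the subsets, thymocyte markers are high on the CD80low replicate 1 arrays of both genotypes, and fibroblast and mural markers are higher in CD80low than in CD80high cells.

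Beyond the genes chosen by prefix, 5 further lists of pathway genes were examined between the subsets, where 27.7% of all tested genes were lower and 28.8% higher in CD80high cells. Of the other ligands, Lefty2 and Lefty1, Nodal inhibitors of the same family, and Nodal itself were higher in CD80high cells, and Inha, the inhibin subunit, was lower (-0.46). Lefty2 was above background on 0 of 4 CD80low arrays and measured 8.73 and 8.65 in control and 8.42 and 8.58 in knockout CD80high cells, at least 9.14-fold higher (adjusted p = 2.14e-08). Nodal was likewise at background in CD80low cells and at least 2.34-fold higher (adjusted p = 1.56e-05). Lefty2 and Nodal entered the test only through CD80high cells, as did Amhr2 and Foxh1 of the lists below. Rgma, Thbs1, Tgif2 and Tagln, also below, entered only through CD80low cells. For all of these genes the filter largely set the direction. The counts of the 5 lists were not split by detection.

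Proteins that hold TGF-beta latent or release it, together with co-receptors, gave 7 lower and 3 higher of 13 tested genes, against the same 27.7% and 28.8% of all genes. Ltbp4, a latent TGF-beta binding protein, measured 10.12 and 10.30 (control) and 9.77 and 9.77 (knockout) in CD80low, and 5.72 and 6.14 (control) and 6.56 and 6.48 (knockout) in CD80high cells (-3.77 ± 0.144, 13.6-fold lower, adjusted p = 2.98e-08). Ltbp3 ran from 10.59 to 10.96 down to 7.06 to 7.37 (-3.57 ± 0.138, 11.9-fold lower). The BMP co-receptor Rgma (-2.76), the microfibril gene Fbn1 (-1.64), the TGF-beta activator Thbs1 (-1.26) and the protease Furin (-0.96) were lower as well, and Fbn1 is also on the fibroblast list. Higher were Itgb6 (1.64), a subunit of an integrin that activates latent TGF-beta, and Amhr2 (1.76), the type II receptor for anti-Müllerian hormone.

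Of 16 tested inhibitors, 8 were lower and 2 higher, 10 called in all, where 56.5% of all genes were called. Among those that fell were the secreted Fstl1 (-2.88), Nbl1 (-2.07) and Twsg1 (-1.59) and the Smad corepressors Ski (-1.92) and Tgif2 (-0.75). The ubiquitin ligase Nedd4l (-1.25) and the Smad-binding Pmepa1 (-0.56) fell as well. The ligase Smurf1 (0.51) was higher over both genotypes, at 5.30 to 6.22 in CD80low and 6.22 to 6.56 in CD80high arrays. In control cells alone, 0 of the 16 inhibitors were called higher. Of 9 tested transducers and Smad partners, Zeb1 (-1.95), Runx1 (-1.94), Tab1 (-1.48) and Tab2 (-0.40) were lower. Foxh1, a partner of Smad2 in Nodal signalling, was at least 1.14-fold higher over both genotypes. Of these 9 genes, 0 were called higher in control cells alone. Within 1 genotype, where neither CD80high array was above background, Rgma was at least 7.01-fold lower (knockout), Runx1 at least 3.59-fold and Thbs1 at least 2.01-fold lower (control).

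Of 22 tested targets of TGF-beta or BMP, 8 were lower and 6 higher in CD80high cells, against the 27.7% and 28.8% of all genes. Lower were Tagln, a smooth muscle gene (at least 8.32-fold, adjusted p = 1.41e-07), Snai2 (-3.37 ± 0.158), Hey1 (-2.44 ± 0.142) and Ctgf (-2.29 ± 0.165). Hamp, the hepcidin gene and a BMP target in liver, measured 6.52 to 7.47 in CD80low and 11.11 to 11.50 in CD80high arrays (4.48 ± 0.181, 22.4-fold higher, adjusted p = 3.39e-08). Tnfrsf11b, osteoprotegerin, rose by 3.86 ± 0.16, the cell cycle inhibitor Cdkn2b by 3.16 ± 0.201 and the homeobox gene Dlx3 by 2.35 ± 0.133. CD80high and CD80low arrays did not overlap for any of these 8 targets.

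The second question of the design was the effect of the Hipk2 knockout, and no pathway gene was called between knockout and control. In limma's fit without a replicate term, 0 of 45 passed in CD80low cells, 0 in CD80high cells and 0 over both subsets. Of all tested genes, 0.00695% passed in each comparison, a single gene, Slc13a2. At an unadjusted p under 0.05 there were 1, 0 and 3 pathway genes, against 6.67%, 1.56% and 5.15% of all genes. The median difference was 0.02, -0.02 and 0 on the log2 scale. The 95% interval lay within 1 log2 unit of 0 for 37 genes in CD80low cells, 41 in CD80high cells and all 45 over both subsets, with a median reach of 0.52, 0.52 and 0.36 to either side. With 2 arrays a group, the adjusted test can miss changes larger than these reaches. The hepcidin gene Hamp2, described below, differed by -1.93 in CD80low cells and was not called (adjusted p = 0.0614, limma). An exact permutation test of 1 comparison cannot give a p below 0.333.

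**Figure D4:**
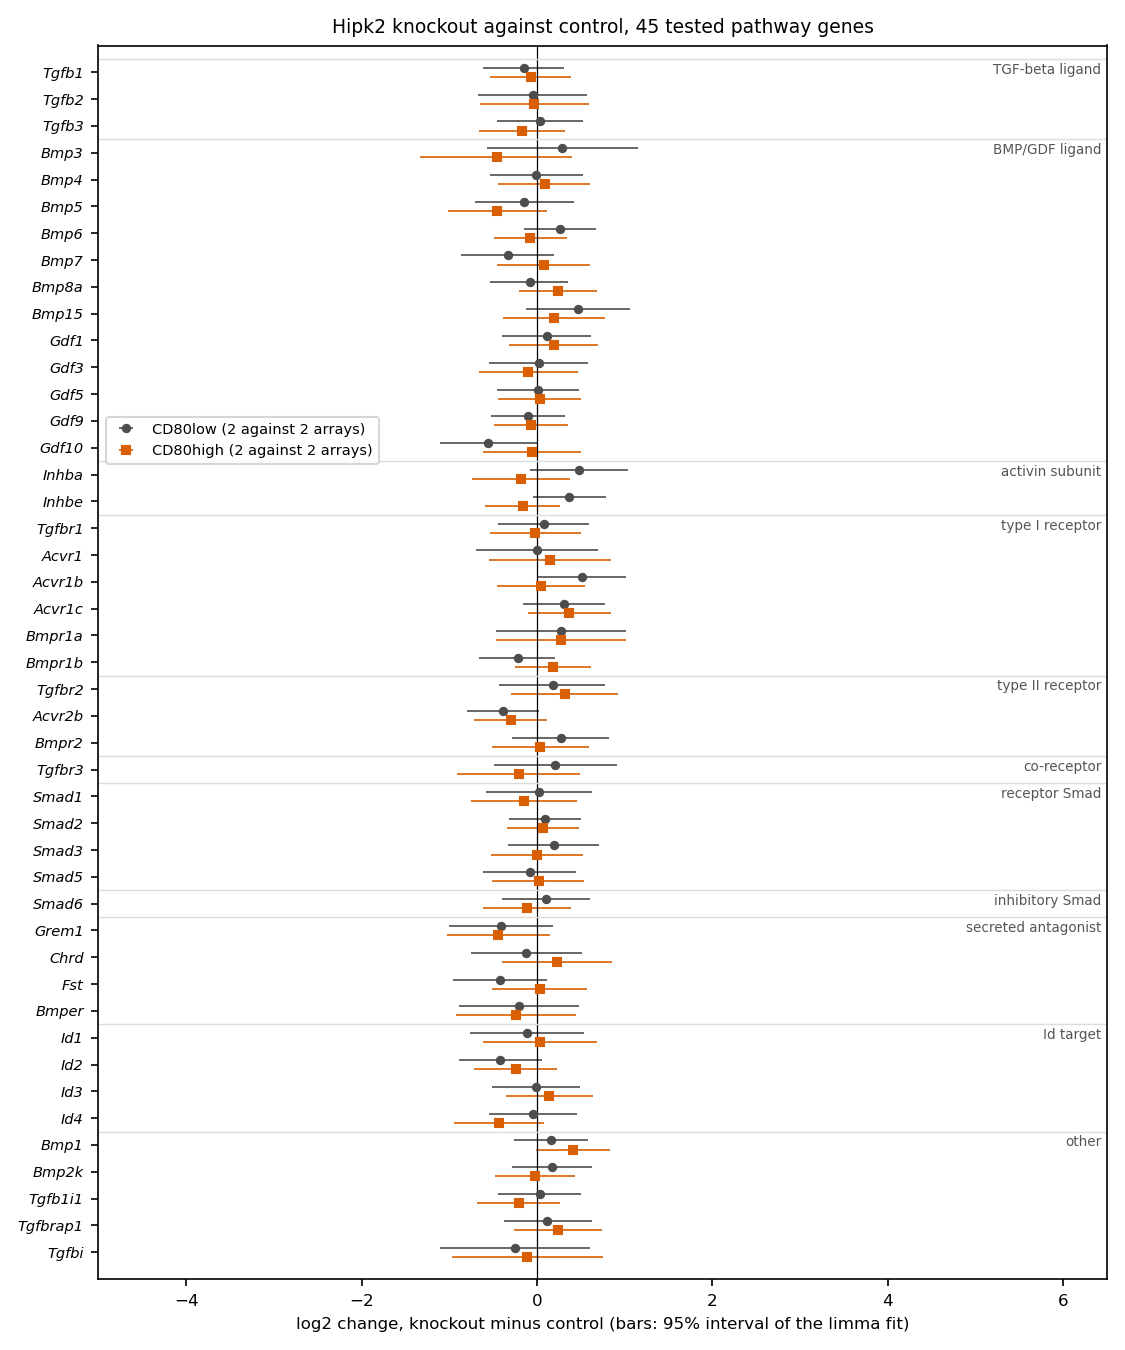
Difference in log2 intensity between Hipk2 knockout and control mTECs for the 45 tested pathway genes, in CD80low (circles) and CD80high (squares) cells with the 95% interval of the limma fit, on the same scale as the plot of the subsets. All fitted differences lie between -0.56 and 0.51, and no gene passed the threshold. This includes Acvr1c, Bmp8a, Bmp15, Bmper, Gdf10 and Inhbe, for which at least 1 CD80low group had no array above background.

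The gene with the smallest p over both subsets was Acvr2b, at -0.35 ± 0.131 (adjusted p = 0.853). Both knockout arrays lay below both control arrays in each subset for Acvr2b, at 9.14 and 8.95 against 9.42 and 9.45 in CD80low and 6.83 and 6.72 against 7.15 and 7.00 in CD80high cells. Acvr1c, Grem1 (-0.42), Id2 (-0.33) and Bmp1 (0.29) followed, with adjusted p-values of 0.958 to 0.991. Next in order were Bmp15, Acvr1b (0.28), Gdf10, Bmp5 (-0.30) and Id4 (-0.24), with an adjusted p of 1. No exact difference is given over both subsets or in CD80low cells for Acvr1c, Bmp15, Gdf10 and Inhbe, because at least 1 genotype had no CD80low array above background. In CD80low cells alone, Acvr1b had the smallest p (0.51 ± 0.225, adjusted p = 0.743). Gdf10, above background on 1 of 4 CD80low arrays, followed (adjusted p = 0.752). Then came Acvr2b (-0.39), Id2 (-0.42), Inhbe, Inhba (0.48), Bmp15, Fst (-0.42), Grem1 (-0.41) and Acvr1c. In CD80high cells alone, Bmp1 came first (0.41 ± 0.189, adjusted p = 1), followed by Id4 (-0.43), Acvr1c (0.37), Bmp5 (-0.45), Grem1 (-0.44), Acvr2b (-0.30), Bmp8a (0.24), Bmp3 (-0.46), Tgfbr2 (0.32) and Id2 (-0.24). The arrays of the genotypes did not overlap for 10 genes in CD80low cells and 16 in CD80high cells, against 30.7% and 28.1% of all genes.

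Values for the central genes of the pathway were small in both subsets. Tgfbr2 differed by 0.18 in CD80low and 0.32 in CD80high cells, Tgfbr1 by 0.08 and -0.02, Smad3 by 0.19 and 0, Smad1 by 0.02 and -0.15, and Smad5 by -0.08 and 0.02. Id1 differed by -0.11 (95% interval -0.76 to 0.54) and 0.04 (-0.61 to 0.69), and Id3 by -0.01 and 0.14. For Tgfb1, Tgfb2 and Tgfb3 the differences in CD80low cells were -0.15, -0.05 and 0.03. None of these passed the test. Other tested probes went the opposite way in CD80low and CD80high cells for Tgfbr2 (-0.12 and -0.18), Tgfbr1 (-0.26 and 0.17) and Bmpr1b (0.27 and -0.05, against -0.22 and 0.18 for its brightest probe). They also did so for Bmp1 in CD80low cells (-0.11 and -0.15), and for Bmpr1a (-0.19), Bmp2k (0.18) and Smad5 (-0.13) in CD80high cells, each with an adjusted p of 1.

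Whether the genotype effect differed between the subsets was asked with the interaction. It called 0 of 45 pathway genes and 0% of all genes, with 0 pathway genes and 3.18% of all genes at an unadjusted p under 0.05. The smallest p belonged to Inhbe (adjusted p = 1), followed by Inhba (-0.66), Acvr1b (-0.47), Bmpr1b (0.41, and -0.32 on its other probe), Gdf10, Bmp3 (-0.75), Fst (0.45), Bmp6 (-0.34), Bmp7 (0.41) and Id4 (-0.38).

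Of the 63 other pathway genes tested, 0 were called between genotypes in either subset or over both. The 2 nearest to the threshold are listed as targets. Hamp2, a second hepcidin gene, measured 9.48 and 8.77 in control CD80low, 7.24 and 7.15 in knockout CD80low, 10.60 and 10.35 in control CD80high and 10.10 and 9.70 in knockout CD80high cells. Its difference was -1.93 ± 0.258 in CD80low cells (adjusted p = 0.0614) and -1.25 ± 0.182 over both subsets (adjusted p = 0.076). Hamp and Hamp2 are close paralogs, so their probes may share signal. Cdkn1c, a cell cycle inhibitor, measured 12.81 and 12.83 in control CD80low, 11.83 and 12.08 in knockout CD80low, 12.70 and 12.73 in control CD80high and 11.81 and 11.85 in knockout CD80high cells. Every knockout array lay below every control array for Cdkn1c, with a difference of -0.88 ± 0.131 over both subsets (adjusted p = 0.076).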

How the data were processed

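Total RNA of sorted mTECs was amplified, labelled with biotin and hybridised to Illumina bead arrays, per the labels. The deposited values are intensities on a linear scale, which the authors had made comparable across arrays by a method not given in the sources used here. No background had been subtracted, judging from the lowest values. A table of values before normalisation was not used, because its columns carry a slide and position that no label ties to a sample. A bead array has no read depth, and the number of arrays and the signal over background limit the precision.

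Deposited intensities were corrected with the normexp method (limma 3.58.1, R 4.3.3, offset 16), quantile-normalised and log2-transformed. Of 46089 probes, 35667 carried 1 gene symbol, 10422 none and 0 several. A probe was tested if its intensity exceeded the mode of the array's background by 1.645 standard deviations in both arrays of at least 1 group. This left 23378 probes and 14392 genes, with the brightest tested probe standing for each gene. Of the 45 tested pathway genes, 13 had several tested probes, and another probe is given where its direction or call differs between the subsets over both genotypes, or its direction between the genotypes within a subset.

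One model was fitted in limma to all 4 groups (4 residual and 6.15 prior degrees of freedom), with two-sided p-values adjusted by Benjamini-Hochberg over all genes and a call at an adjusted p under 0.05. Values after ± are standard errors of the fit. Nothing states that replicates came from separate animals beyond the word biological, so p-values measure the spread between these samples. No label ties equal replicate numbers to the same mice, and no replicate term was used.

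The pathway genes and lists were chosen with earlier results of these data known. The rule for named genes took Hipk2, Aire and Cd80 as checks, every pathway gene called in a comparison, the 10 with the smallest p where fewer were called, the TGF-beta ligands, Tgfbr1, Tgfbr2, the Smad and Id genes and the antagonists always, and of each further list the 8 called genes with the smallest p, or the 2 with the smallest p where none was called. Col1a1, Dcn, Acta2, Krt5, Krt14, Epcam and Slc13a2 were named after their values were seen. Promoter windows are from RefSeq (GRCm38.p6), and 55 of the 57 genes had an Entrez identifier, all found in RefSeq's gene table. Alternatives covered the background correction, the offset, the filter, the probes averaged, the variance prior, array weights, a replicate block and leaving out arrays.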

Additional observations from a re-analysis of the deposited data

How the results depend on the processing

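The alternatives were examined only for the genes chosen by name. Under every alternative run, 0 of these were called by the interaction or between genotypes, in CD80low cells, in CD80high cells or over both. Genes of the further lists, with Hamp2 and Cdkn1c near the threshold, were not followed through the alternatives. Between the subsets over both genotypes, 36 genes were called, 33 to 37 when any 1 array was left out, 34 on the deposited values without further correction, 34 with no background correction, 35 with an offset of 50, and 36 with no filter, with the stricter filter and with probes averaged. In control cells the count of 33 ranged from 26 to 33 with 1 array left out, and in knockout cells the count of 32 from 26 to 33. No call of a subset difference changed sign. Sizes shrank on the deposited values, where no background is subtracted: Bmp4 changed by -1.30, Fst by -2.31, Gdf3 by 2.01 and Tgfbr2 by -3.07. With its 2 probes averaged, Tgfbr2 changed by -2.13. Calls lost over both genotypes were those of Bmp15 (6 of 19 alternatives), Inhbe (8), Gdf1 (2, without control CD80high replicate 2 or knockout CD80high replicate 1), Grem1 (1) and Smad3 (1, without control CD80high replicate 1), and Bmpr2 (2) and Inhba (1) gained one. Replicate numbers were not used as pairs in the main fit. Replicate deviations correlated at 0.512 between the CD80low groups and 0.473 between the CD80high groups, within the subsets where genotypes are compared. Across subsets they correlated at 0.068 to 0.14. With the replicate block the counts were 36 over both genotypes, 34 in control and 34 in knockout cells, and 0 for each genotype comparison. With a replicate block within each subset they were 35, 33 and 30, and 0 for each genotype comparison, and Grem1 was no longer called (adjusted p = 0.0616). Among all genes, that block called 51 between genotypes in CD80low cells (0.354%), 1 in CD80high cells and 19 over both subsets (0.132%). The main fit called 1 in each. With 2 arrays a group, genes near background such as Bmp15 and Inhbe have the least certain values.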
